A study of Mus musculus with 2 samples.

Results

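The epidermal barrier ceramide genes are 10 genes whose proteins make, modify, move or break down ceramides: *Cers3*, *Cers4*, *Acer1*, *Ugcg*, *Smpd1*, *Asah1*, *Abca12*, *Pnpla1*, *Fa2h* and *Degs2*. They were chosen by name from the 32285 genes listed for both libraries, and all 10 were found once by symbol. Levels were read in back skin and preputial gland (PG) of male wild-type C57BL/6 mice aged 52 weeks. No agent, transgene or mutation was used, and the cells of 3 mice were pooled by tissue, so each tissue is 1 library without replicates. No value below therefore has a spread between animals or a test, and every interval is an exact 95% interval that covers counting error only. The mice behind single cells cannot be told apart.

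Ceramides are a sphingoid base joined to a fatty acid, and together with cholesterol and free fatty acids they fill the space between the dead cells of the stratum corneum. Keratinocytes leave the basal layer, pass through the spinous layer and load glucosylceramides and sphingomyelin into lamellar bodies in the granular layer, from which enzymes release ceramides at the skin surface. The barrier needs very long acyl chains and a linoleate group on the far end of the chain (acylceramides), and loss of several of the genes described here causes ichthyosis. Sebocytes, the lipid-filled cells of sebaceous and preputial glands, also make sphingolipids, some of them with hydroxylated fatty acids.

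The skin library held 37675226 counts of unique molecular identifiers (UMIs) and the PG library 26288071. A barcode was kept when it had 500 genes or more, 1000 UMIs or more and mitochondrial UMIs of no more than 10%. The 8899 kept skin cells had 2386 UMIs in the median and the 4699 kept PG cells 2729. No kept barcode was shared between the libraries. The barcode lists differ in length, with 6794880 entries for skin and 737280 for PG, although the labels name a single kit, and tissue and library cannot be told apart.

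Cells were put into classes by the share of their UMIs in marker genes, with limits set after the shares had been seen. Skin gave 1684 basal, 1248 spinous, 89 granular, 402 duct-like and 33 sebocyte cells, and PG gave 677 basal, 401 duct-like and 1036 sebocyte cells. Among the 5 skin classes each summed marker list was highest in its own class, except the spinous list. *Krt14*, a keratin of basal cells, stood at 10311 counts scaled to 1000000 UMIs of the class (CPM) in skin basal cells, *Krt10* at 16488 CPM in spinous cells, and *Lor*, which encodes loricrin of the cornified envelope, at 33453 CPM in granular cells. The spinous markers summed to 71539 CPM in granular cells and to 43895 CPM in spinous cells. *Krt79*, a keratin of gland ducts, reached 7026 CPM in skin and 2945 CPM in PG duct-like cells. The duct gate rested mostly on *Cst6*, at 47998 of 82703 CPM of duct markers in skin and 72795 of 98620 CPM in PG. *Cst6* also stood at 12885 CPM in skin granular cells. *Scd1*, the stearoyl-CoA desaturase of sebocytes, stood at 4914 CPM in skin and 2914 CPM in PG sebocytes. Skin sebocytes had UMIs of 8 of the 10 sebocyte markers and none of *Cidec* and *Plin5*. *Awat2* stood at 47.7 CPM in skin sebocytes against 496 CPM in PG sebocytes, and *Krt79* at 1247 CPM in skin sebocytes. PG held 6 cells past the spinous gate and no granular cell among 4699, where 3 cells would be a share of 0.0638%, so PG was compared in 3 classes. Markers of the PG basal gate were mixed. *Krt14* went against the label, at 2431 CPM, below the 4214 CPM of PG duct-like cells, and sebocyte markers stood at 1170 CPM. *Krt5* went with the label, at 2139 CPM against 572 CPM in PG duct-like cells. The class is called basal by its gate only. Its 8 basal markers stood at 7813 CPM in sum against 5041 CPM in PG duct-like cells and 28529 CPM in skin basal cells. PG duct-like cells also carried 1197 CPM of the 10 sebocyte markers, 9 of which had UMIs, against 149 CPM in skin duct-like cells, and of the 15 granular markers 10 had no UMI there.

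A class is a range of marker shares and not a sharply separate type. Within 1.25 times the gate lay 614 of the skin basal cells, 58 of the spinous, 6 of the granular, 62 of the duct-like and 10 of the sebocyte cells, and in PG 254 basal, 45 duct-like and 138 sebocyte cells. Granular cells had a median of 6.65% of their UMIs in spinous markers, duct-like cells 0.613% in skin and 0.862% in PG, and skin sebocytes had 0.269% in basal markers. Median UMIs per cell also differed, from 2462 in PG basal cells to 6942 in skin granular cells. Levels are therefore given as CPM, and shares of cells only after thinning each cell to 1000 UMIs.

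All 10 genes were matched by identifier to the mouse annotation of build GRCm38 (mm10), and none overlaps another gene on the same strand. *Cers3* (ENSMUSG00000030510) spans chromosome 7 from 66743504 to 66823691 on the plus strand, and *Cers4* (ENSMUSG00000008206) chromosome 8 from 4493026 to 4531680, also on the plus strand. *Acer1* (ENSMUSG00000045019) lies on chromosome 17 from 56953490 to 56982126 on the minus strand, and *Abca12* (ENSMUSG00000050296) on chromosome 1 from 71242276 to 71414910, minus strand. *Pnpla1* (ENSMUSG00000043286) lies on the same chromosome 17 from 28858411 to 28890309 on the plus strand, with the antisense gene *Pnpla1os* inside it. *Fa2h* (ENSMUSG00000033579) runs on chromosome 8 from 111345135 to 111393824, minus strand, and *Smpd1* (ENSMUSG00000037049) on chromosome 7 from 105554360 to 105558389, plus strand, the shortest gene of the set with 4030 bases.

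RefSeq promoters of build GRCm38.p6 were at hand for 8 of the 10 genes. The 250 bases before the start are printed 5′ to 3′ for *Cers4*, which was high in skin sebocytes, and for 4 genes that were low in basal cells and high in suprabasal skin cells, so that the regions in front of the contrasting genes can be set side by side. Capitals mark matches, on either strand, to 5 strings of letters known for binding epidermal or lipid regulators: AP-1 as TGANTCA, GRHL as AACCNGTT, TFAP2 as GCCNNNGGC, SREBP as TCACNCCAC and KLF as CCACACCC.
Cers3: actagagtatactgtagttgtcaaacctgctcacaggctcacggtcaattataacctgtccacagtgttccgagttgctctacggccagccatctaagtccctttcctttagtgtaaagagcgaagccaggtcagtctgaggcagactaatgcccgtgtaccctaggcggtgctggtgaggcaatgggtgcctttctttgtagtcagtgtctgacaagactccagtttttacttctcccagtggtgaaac
Abca12: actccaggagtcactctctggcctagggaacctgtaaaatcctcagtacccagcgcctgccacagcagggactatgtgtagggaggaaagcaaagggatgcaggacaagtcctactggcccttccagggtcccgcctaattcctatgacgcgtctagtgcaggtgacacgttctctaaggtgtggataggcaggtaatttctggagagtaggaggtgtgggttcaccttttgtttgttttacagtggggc
Acer1: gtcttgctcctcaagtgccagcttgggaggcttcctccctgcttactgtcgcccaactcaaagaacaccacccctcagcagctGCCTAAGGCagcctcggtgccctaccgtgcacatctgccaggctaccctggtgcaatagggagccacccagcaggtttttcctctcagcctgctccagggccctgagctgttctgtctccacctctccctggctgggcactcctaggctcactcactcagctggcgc
Pnpla1: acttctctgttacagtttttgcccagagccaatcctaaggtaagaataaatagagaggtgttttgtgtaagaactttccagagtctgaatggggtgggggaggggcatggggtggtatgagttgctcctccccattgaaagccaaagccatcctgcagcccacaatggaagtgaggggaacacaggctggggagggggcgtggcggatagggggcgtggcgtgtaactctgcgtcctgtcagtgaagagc
Cers4: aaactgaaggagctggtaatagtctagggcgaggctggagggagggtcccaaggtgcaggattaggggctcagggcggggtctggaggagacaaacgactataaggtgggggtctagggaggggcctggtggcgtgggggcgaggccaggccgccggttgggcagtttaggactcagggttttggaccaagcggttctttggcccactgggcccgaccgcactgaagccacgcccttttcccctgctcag
These windows lie at chr7:66743254-66743503, chr1:71414911-71415160 (minus strand), chr17:56982127-56982376 (minus strand), chr17:28858161-28858410 and chr8:4493155-4493404. The *Cers4* window was taken by the RefSeq start and lies inside the gene span given above, which begins at 4493026. In these 5 windows 1 match was found, to the TFAP2 letters in front of *Acer1*. Of the 3 windows not printed, that of *Ugcg* held 1 TFAP2 match, that of *Degs2* held 2 and that of *Smpd1* none to any string, and 13.7% of the 32851 promoter windows of the same length hold at least 1 such match. The AP-1 letters occur in 6.75% of all windows, the KLF letters in 3.2%, the GRHL letters in 1.79% and the SREBP letters in 1.05%. The G and C content was 49.6% in front of *Cers3*, 53.2% for *Abca12*, 54.0% for *Pnpla1*, 61.6% for *Acer1* and 63.2% for *Cers4*.

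The ceramide synthases *Cers3* and *Cers4*, which attach the fatty acid to the sphingoid base, were highest in different epithelial classes. *Cers3* uses the very long chains of epidermal ceramides. It stood at 8.23 CPM in skin basal cells (95% interval 5.93 to 11.1, 42 UMIs), 21.8 CPM in spinous cells (17.9 to 26.3, 108 UMIs), 83.3 CPM in granular cells (63.1 to 107.9, 57 UMIs) and 12.98 CPM in duct-like cells (7.56 to 20.8, 17 UMIs). In PG it was seen in duct-like cells, at 7.70 CPM (4.21 to 12.9, 14 UMIs in 14 cells). Skin sebocytes and PG basal cells had no *Cers3* UMI, with intervals up to 25.1 and 2.07 CPM, and PG sebocytes had 1 UMI. The order in skin, granular over spinous over basal, was larger than the counting error at each step, while duct-like cells overlapped with both basal and spinous cells.

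*Cers4*, which uses chains of intermediate length, was highest in skin sebocytes. Skin sebocytes held 123 UMIs, or 838 CPM (697 to 1000), in 21 of the 33 cells, and PG sebocytes 77 UMIs, or 15.2 CPM (11.97 to 19.0), which is above the other 2 PG classes but not above the 23.6 CPM of PG fibroblast-gated cells. Skin basal cells stood at 1.37 CPM (7 UMIs), spinous cells at 7.27 CPM (36 UMIs) and duct-like cells at 6.87 CPM (9 UMIs). Granular cells had none, with an interval up to 5.39 CPM, and neither had PG duct-like cells, with an interval up to 2.03 CPM. So the class with the most *Cers3* was without a *Cers4* UMI in both tissues, and the sebocytes, which had the most *Cers4* of the epithelial classes, held 1 *Cers3* UMI in all. The granular limit of 5.39 CPM is above the skin basal *Cers4* level. Hair follicle matrix and sheath cells of skin held both genes, *Cers3* at 11.8 CPM (8.33 to 16.3, 37 UMIs) and *Cers4* at 39.3 CPM (32.7 to 46.9, 123 UMIs). Free RNA in the skin suspension, read from barcodes with at most 100 UMIs, contained *Cers4* at 24.9 CPM, above its level in spinous and duct-like cells, and of the 36 spinous UMIs 9 came from 1 cell with 1.65% of its UMIs in sebocyte markers.

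Among the other ceramide synthases, which were read as part of the 45 further pathway genes, *Cers2*, *Cers5* and *Cers6* did not follow *Cers3*. *Cers6* stood at 38.8 CPM in skin basal cells and 14.6 CPM in granular cells, a log2 ratio of -1.41 (-2.49 to -0.50), and *Cers5* at 21.7 and 8.77 CPM, a log2 ratio of -1.31 (-2.79 to -0.14). *Cers2* was lower in spinous than basal cells of skin, with a log2 ratio of -2.21 (-3.43 to -1.16), and lower in duct-like than basal cells of PG, with -2.01 (-2.85 to -1.25). In PG sebocytes *Cers2* at 26.8 CPM and *Cers5* at 24.8 CPM were both above the 15.2 CPM of *Cers4*, all as CPM of 3′ end counts, which are not scaled by transcript length.

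**Figure D1:**
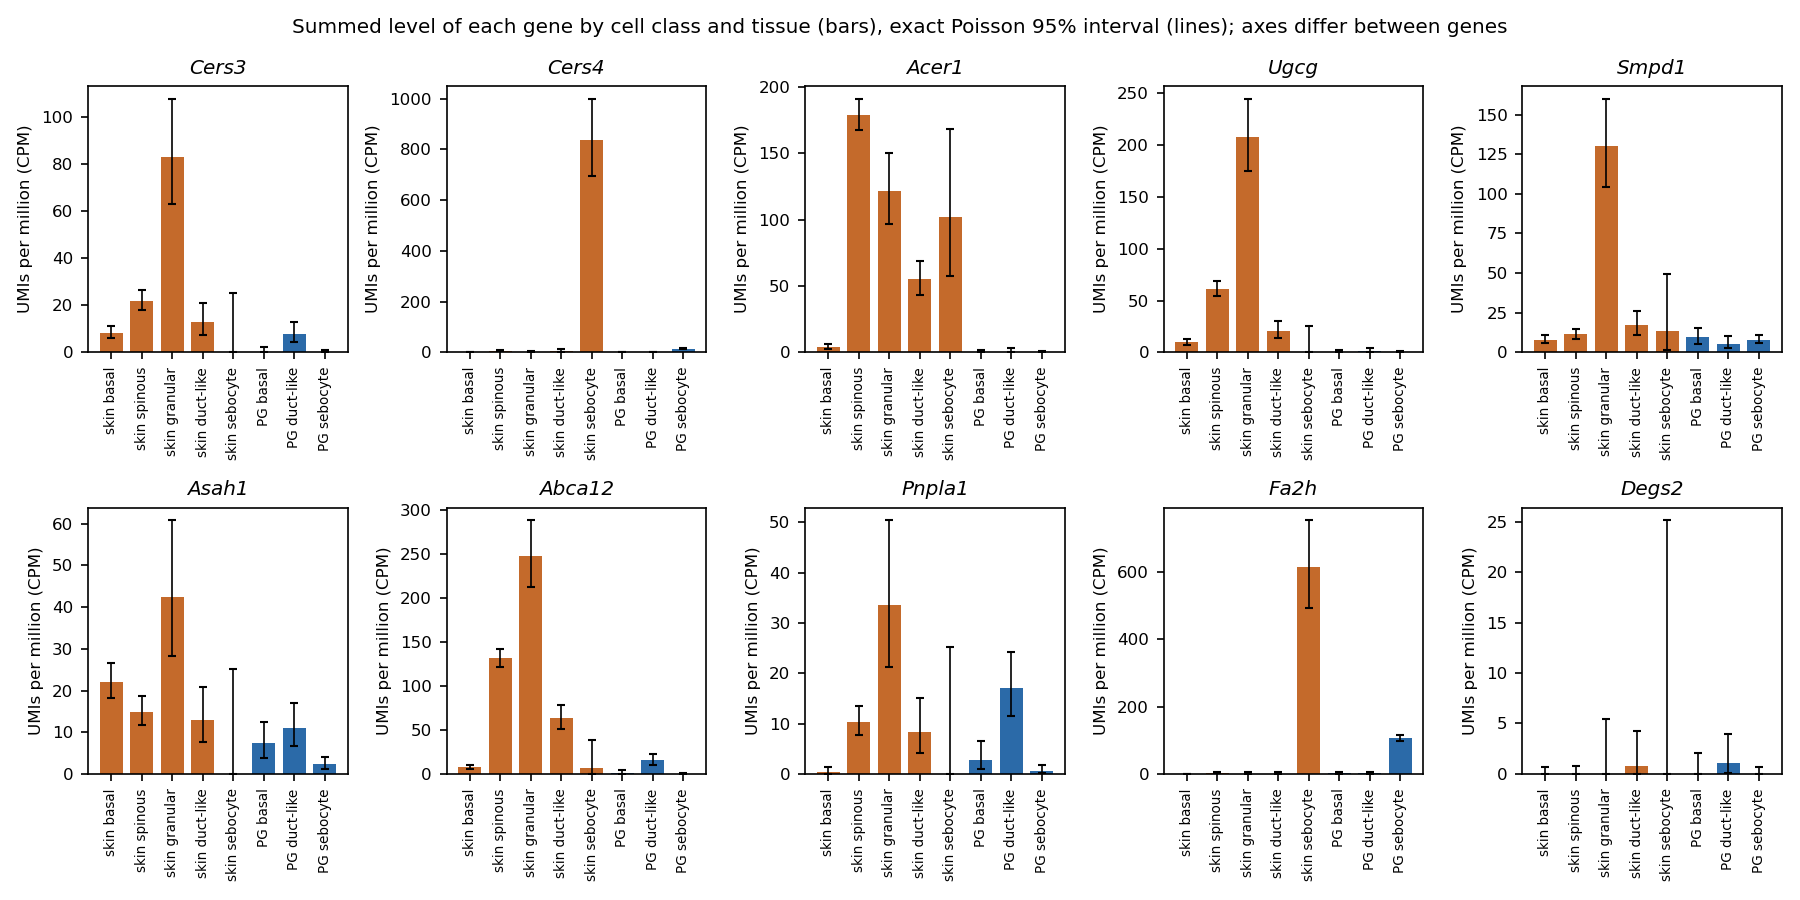
Level of each of the 10 genes (CPM, linear axes that start at 0 and differ between genes) in 5 skin classes (orange) and 3 PG classes (blue). Bars are the summed UMIs of a class as CPM, lines the exact Poisson 95% interval. *Cers3*, *Ugcg*, *Smpd1*, *Asah1*, *Abca12* and *Pnpla1* are highest in skin granular cells, *Acer1* in spinous cells, and *Cers4* and *Fa2h* in skin sebocytes, with 838 and 613 CPM.

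The ceramidases release the fatty acid again. *Acer1*, the alkaline ceramidase of the epidermis, stood at 3.92 CPM in skin basal cells (2.39 to 6.05, 20 UMIs) and at 179 CPM in spinous cells (167.5 to 191, 887 UMIs). It reached 121 CPM in granular cells (96.6 to 150, 83 UMIs), 55.0 CPM in duct-like cells (43.0 to 69.3, 72 UMIs) and 102 CPM in skin sebocytes (57.2 to 169, 15 UMIs in 8 cells). In the whole PG library 3 *Acer1* UMIs were found in kept cells, 1 each in duct-like cells, sebocytes and fibroblast-gated cells. *Asah1*, the acid ceramidase of lysosomes, was more even over the skin layers, with 22.1 CPM in skin basal cells (18.2 to 26.6), 14.9 CPM in spinous, 42.4 CPM in granular (28.4 to 60.9) and 12.98 CPM in duct-like cells. PG basal, duct-like and sebocyte cells held 7.31, 10.997 and 2.36 CPM of *Asah1*. Its levels were higher outside the epithelium, at 79.3 CPM in skin and 85.8 CPM in PG fibroblast-gated cells, where *Acer1* had 5.14 CPM (12 UMIs) and 0.876 CPM (1 UMI).

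*Ugcg* adds glucose to ceramide, the form in which ceramide enters lamellar bodies. Over the layers of skin it stood at 9.60 CPM in basal (7.10 to 12.7, 49 UMIs), 61.4 CPM in spinous (54.7 to 68.7, 304 UMIs) and 208 CPM in granular cells (175 to 245, 142 UMIs), with 20.6 CPM in duct-like cells. The 3 PG classes together held 4 UMIs, with none in basal cells and 2 each in duct-like cells (1.10 CPM) and sebocytes (0.394 CPM). Skin sebocytes had none in 33 cells, with an interval up to 25.1 CPM. *Smpd1*, the acid sphingomyelinase that frees ceramide from sphingomyelin, had overlapping intervals in basal and spinous cells. It stood at 8.03 CPM in basal (5.76 to 10.9, 41 UMIs), 11.3 CPM in spinous (8.54 to 14.7, 56 UMIs) and 130 CPM in granular cells (104.5 to 160, 89 UMIs in 49 cells). In the other classes it stood at 17.6 CPM in skin duct-like cells and 13.6 CPM (2 UMIs) in skin sebocytes. PG basal, duct-like and sebocyte cells held 9.56, 5.50 and 8.08 CPM, and the intervals of these PG classes overlap.

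*Abca12* encodes the transporter that fills lamellar bodies with glucosylceramide, the gene of harlequin ichthyosis. Skin basal cells held 7.25 CPM (5.10 to 9.99, 37 UMIs), spinous cells 132 CPM (122 to 142, 652 UMIs), granular cells 248 CPM (213 to 289, 170 UMIs) and duct-like cells 63.4 CPM (50.5 to 78.6, 83 UMIs). In PG, duct-like cells stood at 15.4 CPM (10.2 to 22.3, 28 UMIs), basal cells had 2 UMIs and sebocytes 1. *Pnpla1* makes acylceramide by moving linoleate onto the hydroxylated chain. Its UMIs were fewer, with 2 in skin basal cells (0.392 CPM), 51 in spinous (10.3 CPM, 7.67 to 13.5), 23 in granular (33.6 CPM, 21.3 to 50.4) and 11 in duct-like cells (8.40 CPM, 4.19 to 15.03). PG duct-like cells held 31 *Pnpla1* UMIs in 28 cells, or 17.0 CPM (11.6 to 24.2), and PG basal cells 5 UMIs, or 2.81 CPM. The *Pnpla1* level of duct-like cells was nominally higher in PG than in skin, and the intervals overlap.

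*Fa2h*, the fatty acid 2-hydroxylase, and *Degs2*, a desaturase and hydroxylase that makes the phytosphingosine base of skin ceramides, modify the chains. *Fa2h* was a sebocyte gene in both tissues, with 90 UMIs in skin sebocytes (613 CPM, 493 to 754, in 11 of 33 cells) and 544 UMIs in PG sebocytes (107 CPM, 98.3 to 117, in 255 cells). PG basal and duct-like cells held 1.69 and 2.75 CPM, against 72.6 CPM in the free RNA of PG. Skin basal and granular cells held none. Spinous cells held 18 UMIs, 16 of them in the same cell that had the 9 *Cers4* UMIs, and without that cell 0.404 CPM (2 UMIs) were left. *Degs2* had 7 UMIs in all kept cells of skin and 3 in those of PG, and none of the 8 classes held more than 2, so differences in *Degs2* were not detectable at this depth.

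In skin, most members were higher in granular than in basal cells. A gene was read as higher or lower when its CPM differed at least 2-fold between the classes with at least 10 UMIs in both together. This is a limit of size and not a test, and genes with few UMIs can pass it by counting error alone. Of the 7 members with 10 UMIs, 6 were higher in granular than basal cells (13.6% of 11319 genes were) and none was lower (33.4% of all genes). The log2 ratios were 6.42 for *Pnpla1* (4.41 to 9.55), 5.10 for *Abca12* (4.58 to 5.65), 4.95 for *Acer1* (4.23 to 5.74), 4.43 for *Ugcg* (3.96 to 4.93), 4.02 for *Smpd1* (3.47 to 4.59) and 3.34 for *Cers3* (2.74 to 3.95). *Asah1* stayed under the limit at 0.94 (0.30 to 1.54). The median log2 ratio was 4.43 over the members and -0.42 over all genes with 10 UMIs.

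From basal to spinous cells, 7 of 9 members were higher, against 10.1% of 12114 genes, and none was lower, against 15.7%. *Acer1* led with a log2 ratio of 5.51 (4.88 to 6.23), a 45.7-fold difference, followed by *Pnpla1* with 4.72 (2.79 to 7.80), *Abca12* with 4.18 (3.70 to 4.70), *Ugcg* with 2.68 (2.24 to 3.14), *Cers4* with 2.41 (1.22 to 3.82) and *Cers3* with 1.41 (0.88 to 1.96). *Fa2h*, absent from basal cells, passed with a bound of 6.19-fold against 3 counts (exact lower limit of the log2 ratio 2.18). That bound rests on the single cell named above. With gates at 2 times the limits 4 members were higher and 1 lower, *Cers4* at -1.25. *Smpd1* at 0.49 (-0.11 to 1.11) and *Asah1* at -0.57 (-1.01 to -0.13) stayed within 2-fold. The members' median was 2.63, which is the *Fa2h* bound, and that of all genes -0.12. The CPM of *Cers3*, *Ugcg*, *Abca12* and *Pnpla1* was higher at both steps, from basal to spinous and from spinous to granular cells, with intervals apart at each. The thinned shares of cells, given below, did not separate every step for *Cers3* and *Pnpla1*. *Acer1* was lower in granular than spinous cells, and *Smpd1* differed beyond its intervals at the second step.

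Of the 45 further pathway genes, 39 had 10 UMIs in granular and basal cells together. Of these, 24 were higher and 6 lower in granular cells (13.6% and 33.4% of all genes). Genes tied to acylceramides had unlike ratios. *Elovl4*, the elongase of ultra-long chains, stood at 496 CPM in granular and 5.29 CPM in basal cells (log2 ratio 6.55, 5.98 to 7.17), *Cyp4f39*, which hydroxylates the chain end, at 77.5 and 0.392 CPM (7.63, 5.70 to 10.7), the lipoxygenase *Alox12b* at 159 and 0.196 CPM (9.67, 7.16 to 14.98) and *Aloxe3* at 118 and 3.13 CPM (5.24, 4.45 to 6.11). *Sdr9c7*, the dehydrogenase that acts after the lipoxygenases, had 132 UMIs in granular and none in basal cells. With basal cells given 3 counts it was 328-fold higher (exact lower limit of the log2 ratio 8.04). The elongase *Elovl1* had a log2 ratio of 4.68 (4.44 to 4.93), the acyl-CoA synthetase *Slc27a4* of 2.18 (1.36 to 2.96) and *Abhd5*, the co-activator that assists PNPLA1, of 1.29 (0.86 to 1.71). The neutral sphingomyelinase *Smpd3* had 149 UMIs in granular cells, 15 in spinous and 10 in basal cells, so that, like *Smpd1*, it was high in the granular layer and low in both others. Outside the epithelium *Smpd3* reached 679 CPM in skin fibroblast-gated cells. *Psap*, the precursor of saposins, was among the 6 lower genes, with 27.8 and 198 CPM (-2.83, -3.57 to -2.18), as were *Cers5*, *Cers6* and, with intervals that include 0, *Smpd4*, *Acer2* and *Sgms2*. In spinous cells 19 of 39 were higher and 2 lower than in basal cells (10.1% and 15.7% of all genes).

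**Figure D2:**
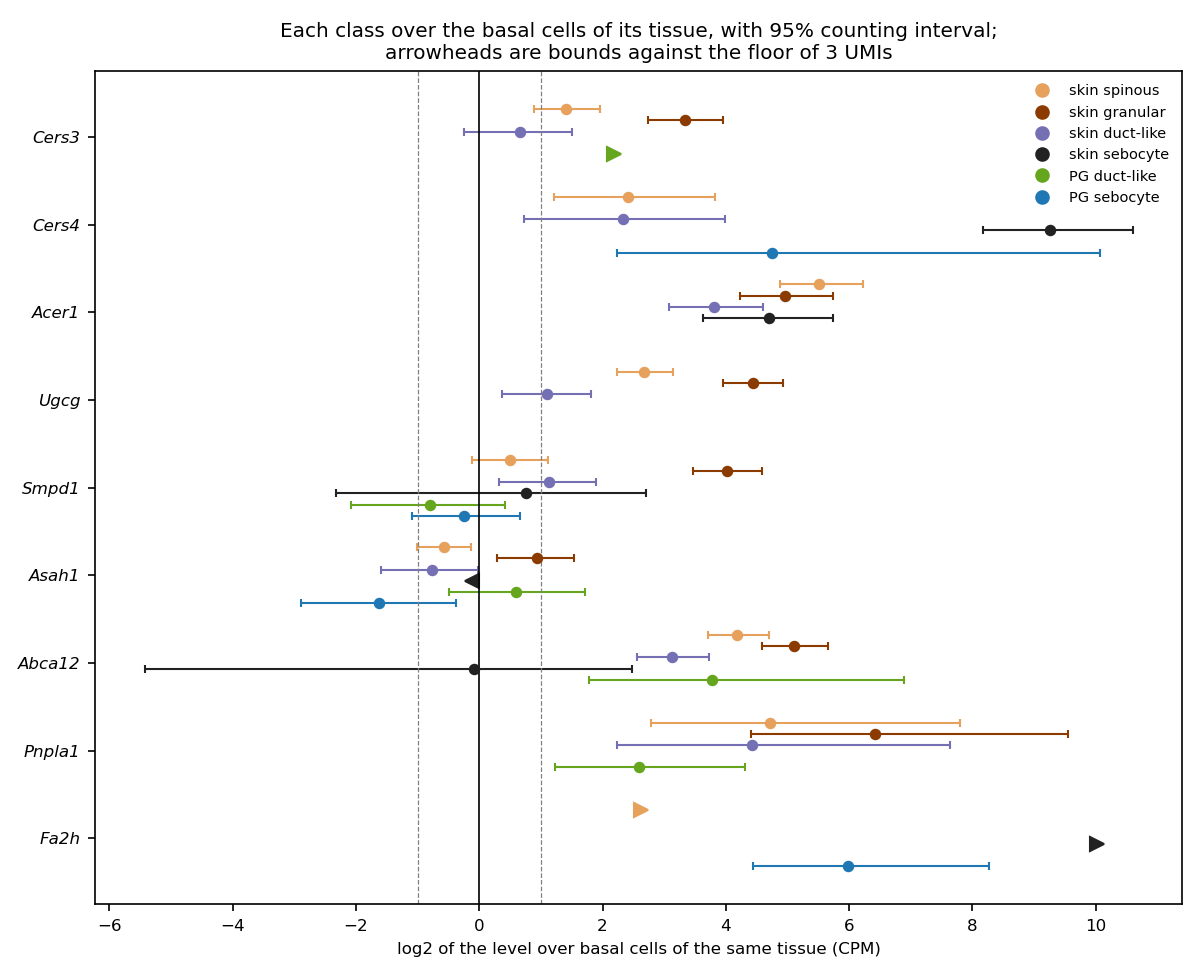
Log2 ratio of each class over the basal cells of its own tissue for 9 members, with 95% counting intervals. Arrowheads are bounds against the floor of 3 UMIs, dashed lines mark 2-fold, and members with under 10 UMIs in the pair are left out. The granular points of 6 members lie between 3.34 and 6.42, and the *Cers4* point of skin sebocytes lies at 9.26.

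Within the suprabasal classes the members followed different courses along the share of a class's own markers. Among spinous cells grouped by spinous marker share (1 to 3%, 3 to 6% and 6% or more of UMIs, with 440, 552 and 256 cells), *Acer1* stood at 75.5, 167 and 331 CPM. *Abca12* stood at 79.8, 149 and 168 CPM, and *Pnpla1* at 3.12, 10.5 and 19.0 CPM. *Ugcg* was highest in the middle group, at 51.1, 79.5 and 44.4 CPM, and *Cers3* stood at 14.3, 26.3 and 23.8 CPM. *Cers4* went the other way, with 13.1, 6.71 and 0.793 CPM. Of the 21 UMIs in its first group 9 came from the single cell named above, and without that cell the groups stood at 7.50 CPM (3.88 to 13.1), 6.70 and 0.793 CPM, on 12, 14 and 1 UMIs. Among granular cells with 0.5 to 2% (38 cells) and 2% or more (51 cells) of granular markers, *Acer1* was lower in the second group, at 68.0 CPM (44.4 to 99.6) against 189 CPM (143 to 245). *Cers3* stood at 49.7 and 110 CPM, *Smpd1* at 96.1 and 157 CPM, *Ugcg* at 159 and 246 CPM and *Abca12* at 199 and 288 CPM. The *Cers3* intervals, 27.8 to 82.0 and 79.1 to 148, overlap slightly, and only the *Acer1* intervals were apart. *Acer1* was thus highest in the spinous cells with the most spinous markers, where *Cers3*, *Ugcg* and *Smpd1* were still below their granular levels.

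**Figure D3:**
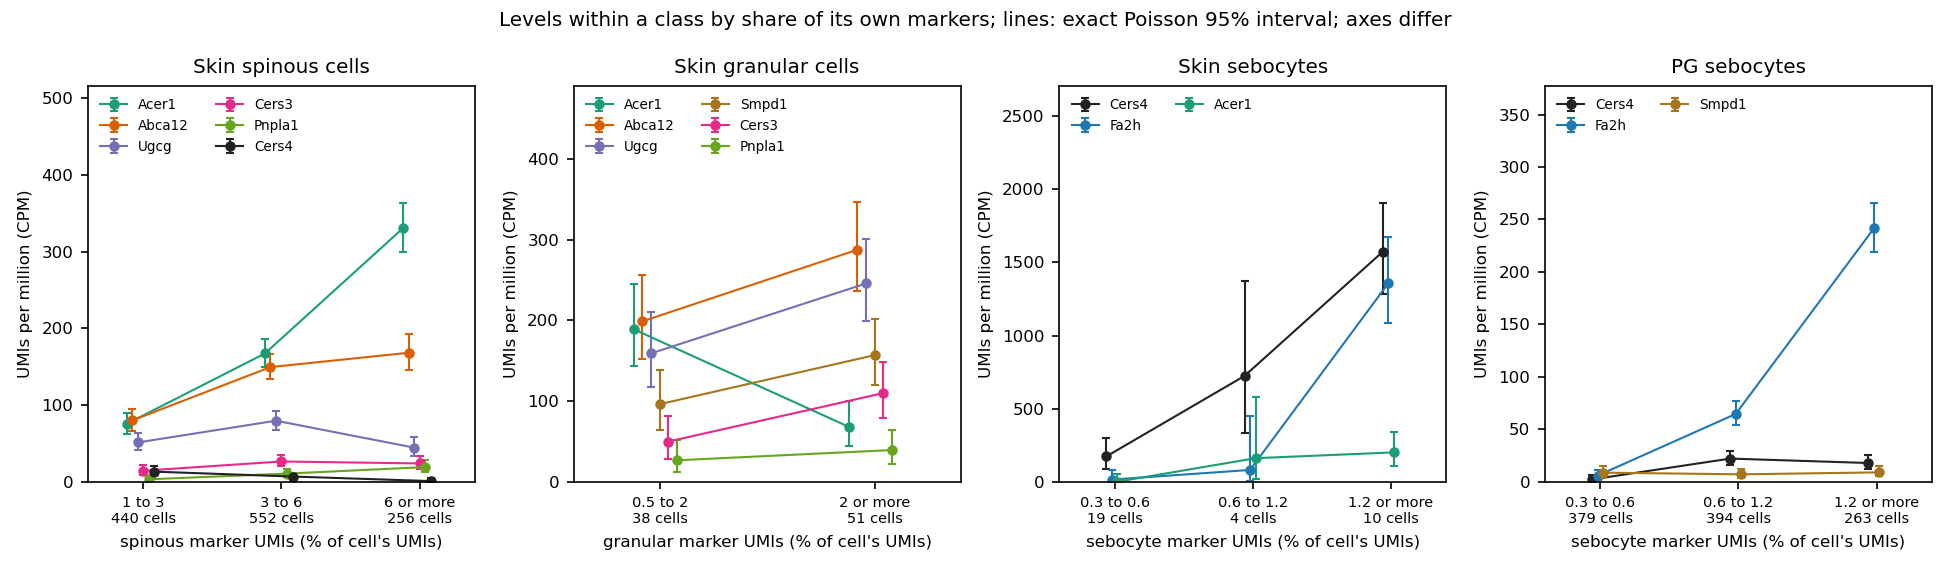
Level (CPM) of members in cells of 1 class grouped by the share of their UMIs in the class's own markers, for skin spinous, skin granular, skin sebocyte and PG sebocyte cells, with exact Poisson 95% intervals and the number of cells under each group. *Acer1* reaches 331 CPM in the last spinous group and stands at 68.0 CPM in the second granular group, and *Fa2h* reaches 242 CPM in the last PG sebocyte group.

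Duct-like cells shared a part of the suprabasal pattern. In skin, 6 of 8 members were at least 2-fold higher in duct-like than basal cells (11.5% of 11558 genes) and none was lower (14.9%). The log2 ratios were 4.42 for *Pnpla1* (2.23 to 7.64), 3.81 for *Acer1* (3.08 to 4.60), 3.13 for *Abca12* (2.55 to 3.73), 2.33 for *Cers4* (0.73 to 3.99), 1.13 for *Smpd1* (0.33 to 1.90) and 1.10 for *Ugcg* (0.37 to 1.81). *Cers3* at 0.66 (-0.25 to 1.502) and *Asah1* at -0.77 (-1.60 to -0.03) stayed within 2-fold. The members' median was 1.73 and that of all genes -0.07. With gates at 2 times the limits 3 were higher and *Cers4* turned to -1.24. Of the further pathway genes, 9 of 37 were higher and 2 lower.

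In PG, 3 of the 5 members with enough UMIs were higher in duct-like than basal cells (9.29% of 10583 genes) and none was lower (27.8%). *Abca12* had a log2 ratio of 3.77 (1.79 to 6.89) and *Pnpla1* of 2.60 (1.22 to 4.32). *Cers3*, with 14 UMIs against none, had a bound of 4.56-fold higher against 3 counts (exact lower limit of the log2 ratio 1.70). *Smpd1* at -0.80 (-2.09 to 0.41) and *Asah1* at 0.59 (-0.49 to 1.72) had intervals that include 0. The members' median was 2.19, the *Cers3* bound, and that of all genes -0.45. Of the 14 *Cers3* UMIs, 13 came from the 215 cells with at least 6% of duct markers (11.8 CPM, 6.30 to 20.2) and 1 from the 186 cells below that (1.39 CPM, 0.0352 to 7.74), whereas *Abca12* stood at 15.3 and 15.5 CPM in the 2 groups. *Elovl4* at 210 against 15.2 CPM (log2 ratio 3.79, 3.23 to 4.41) and *Sptlc3*, a subunit of the enzyme that starts sphingolipid synthesis, at 21.4 against 0.562 CPM (5.25, 2.69 to 10.6) were among the 10 of 34 further genes that were higher, and 6 were lower. *Alox12b* and *Sdr9c7* had no UMI in either class. The PG duct-like cells thus carried *Cers3*, *Abca12*, *Pnpla1* and *Elovl4* without detected *Alox12b* or *Sdr9c7*, with 1 *Acer1* UMI and 2 *Ugcg* UMIs. Skin duct-like cells were also low in *Alox12b* (6 UMIs, 4.58 CPM) and *Sdr9c7* (1 UMI, 0.764 CPM), so this is not particular to PG. After thinning, the shares of PG duct-like cells with *Cers3*, *Abca12* or *Pnpla1* overlapped those of PG basal cells, as given below. With gates at 2 times the limits, which left 90 PG basal cells, 0 members were called higher and 1, *Smpd1* at -2.24, lower. With 1000 genes and 2000 UMIs per cell 3 were higher and 1, *Smpd1* at -1.03, lower.

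In skin, 3 of 8 members were at least 2-fold higher in sebocytes than basal cells (17.0% of 11083 genes) and none was lower (11.7%). *Cers4* had a log2 ratio of 9.26 (8.17 to 10.6) and *Acer1* of 4.71 (3.64 to 5.74). *Fa2h*, absent from basal cells, was 1044-fold higher against 3 counts (exact lower limit of the log2 ratio 9.70). *Smpd1* at 0.76 (-2.33 to 2.71) and *Abca12* at -0.09 (-5.43 to 2.48) rested on 2 and 1 sebocyte UMIs. *Cers3*, *Ugcg* and *Asah1* had none in sebocytes, whose floor of 3 UMIs is 20.4 CPM. Their basal levels of 8.23, 9.60 and 22.1 CPM are below or too near that floor for a call of lower. That no member was called lower therefore says nothing about these genes. With these genes placed at the floor the members' median was 1.202 and that of all genes 0.46, and the former lies between *Cers3* and *Ugcg*, whose floor is above their basal level, so it is no sign of a higher level. In PG, 2 of 4 members were higher in sebocytes than basal cells (9.28% of 11367 genes) and 1 was lower (17.4%). *Fa2h* had a log2 ratio of 5.99 (4.43 to 8.27), *Cers4* of 4.75 (2.23 to 10.1) and *Asah1* of -1.63 (-2.89 to -0.38), while *Smpd1* was at -0.24 (-1.09 to 0.67). The members' median was 2.25 and that of all genes -0.15.

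In skin, both genes were concentrated in the sebocytes with the most sebocyte markers. There the 19 cells with 0.3 to 0.6% of sebocyte markers held *Cers4* at 173 CPM, the 4 cells with 0.6 to 1.2% at 724 CPM and the 10 cells above that at 1573 CPM (1283 to 1910), while *Fa2h* stood at 14.4, 80.4 and 1358 CPM. The 10 cells held 102 of the 123 *Cers4* UMIs, 88 of the 90 *Fa2h* UMIs and 13 of the 15 *Acer1* UMIs. In PG, *Fa2h* stood at 5.74 CPM in the 379 cells of the lowest group, 64.6 CPM in 394 and 242 CPM in 263 cells (219 to 266). *Cers4* in PG did not follow it all the way, with 2.15, 22.0 and 17.8 CPM, and the intervals of the last 2 groups overlap. A single skin cell held 25 *Cers4*, 28 *Fa2h* and 4 *Acer1* UMIs, and without it *Cers4* stood at 735 CPM, *Fa2h* at 465 CPM and *Acer1* at 82.5 CPM.

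Among the further genes, 10 of 35 were higher and 1 lower in skin sebocytes than basal cells (17.0% and 11.7% of all genes). Of those called higher, *Sptlc2*, *Acer2*, *Sgms2* and *Sphk1* had at most 6 sebocyte UMIs each and intervals that include 0. *Asah2* rested on 3 sebocyte UMIs. In PG 12 of 32 were higher and 4 lower (9.28% and 17.4% of all genes). The floor of 20.4 CPM limits calls of lower in skin sebocytes here too. *Elovl4* had 107 UMIs (729 CPM) in skin sebocytes and 1 UMI (0.197 CPM) in PG sebocytes, a log2 ratio of -11.85 (-17.2 to -9.35). *Abhd5* was higher in sebocytes of both, at 102 against 38.2 CPM in skin and 131 against 28.1 CPM in PG. *Sphk1*, which phosphorylates sphingosine, stood at 133 CPM in PG sebocytes and at 13.6 CPM (2 UMIs) in skin sebocytes.

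The tissues were then compared class by class, PG over skin. In basal cells, none of 6 members was at least 2-fold higher in PG (22.0% of 11853 genes) and 5 were lower (15.2%). *Abca12* had a log2 ratio of -2.69 (-5.79 to -0.73) and *Asah1* of -1.60 (-2.55 to -0.77). *Cers3*, *Acer1* and *Ugcg* had no UMI in PG basal cells. With 3 counts in their place the bounds were 4.88-, 2.32- and 5.69-fold lower. The exact upper limits of the log2 ratios were weaker, at -1.92, -0.78 and -2.16, that of *Acer1* within 2-fold. The skin basal level of *Acer1* is at background by its share of cells, given below, with 31.1 CPM of *Acer1* in the free RNA of skin and 0.388 CPM in that of PG, so its bound is not read as a difference between basal cells. *Smpd1* at 0.25 (-0.66 to 1.10) had an interval that includes 0. The median was -1.94 over members, 3 of them at their bounds, and 0.19 over all genes. The basal gates held different levels of basal markers, as given above, and with gates at 2 times the limits, which left 65 skin and 90 PG basal cells, 0 members were called lower, *Asah1* then standing at -1.24.

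In duct-like cells, 1 of 7 members was higher in PG (14.7% of 10065 genes) and 4 were lower (22.5%). The log2 ratios were -6.64 for *Acer1* (-11.97 to -4.12), which had 1 UMI in PG and 72 in skin, -4.23 for *Ugcg* (-7.35 to -2.24), -2.04 for *Abca12* (-2.71 to -1.41) and -1.68 for *Smpd1* (-2.91 to -0.55). *Pnpla1* was at 1.02 (-0.01 to 2.16), an interval that includes no difference. The intervals of *Cers3* at -0.75 (-1.89 to 0.35) and *Asah1* at -0.24 (-1.25 to 0.78) also include 0. The median was -1.68 over members and -0.21 over all genes. In the further list 6 of 35 were higher in PG, among them *Psap* (1.84, 1.56 to 2.13), and 8 were lower, among them *Cers6* (-2.56, -3.88 to -1.42) and *Aloxe3* (-3.28, -6.46 to -1.16). Both counts are near the shares over all genes, 14.7% and 22.5%, and are not read as a trait of the list.

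In sebocytes, none of 5 members was higher in PG (12.8% of 10668 genes) and 3 were lower (16.2%). *Acer1* had a log2 ratio of -9.02 (-14.4 to -6.32), with 1 UMI in PG, *Cers4* of -5.79 (-6.22 to -5.37), which is 55.3-fold, and *Fa2h* of -2.52 (-2.84 to -2.18), which is 5.72-fold. *Smpd1* at -0.75 (-2.70 to 2.34) rested on 2 skin UMIs, and *Asah1* had none in skin sebocytes. The median was -3.11 over members, which is *Asah1* with its skin level placed at the floor, and -0.39 over all genes. *Asah1* had 12 UMIs in PG sebocytes, and the skin floor of 20.4 CPM lies above its PG level of 2.36 CPM. *Asah1* could therefore not be called higher in PG, and this median is no sign of a lower level there. The ratios of *Cers4* and *Fa2h* rest on 33 skin cells. When the classes were taken from clusters instead of gates, 75 skin cells were counted as sebocytes and the log2 ratios were -4.25 and -1.13.

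Cell types outside the epithelium were read the same way. In fibroblast-gated cells, 1109 in skin and 680 in PG, the members with most UMIs had ratios whose intervals include 0, with *Ugcg* at 67.3 and 64.8 CPM (log2 ratio -0.05, -0.47 to 0.35), *Asah1* at 79.3 and 85.8 CPM, *Cers4* at 29.1 and 23.6 CPM and *Smpd1* at 18.9 and 20.1 CPM, and the median log2 ratio over all genes was 0.01. *Acer1* with 1 PG and 12 skin UMIs and *Abca12* with 2 and 9 were over 2-fold lower in PG, at -2.55 (-7.97 to 0.20) and -1.14 (-4.39 to 1.13). In immune-gated cells *Ugcg* was lower in PG, at 28.0 CPM against 64.1 CPM in skin (log2 ratio -1.19, -2.19 to -0.28), as was *Smpd1* at 8.01 against 27.2 CPM (-1.77, -3.80 to -0.15). *Cers4* had 24 UMIs in skin and none in PG immune-gated cells, 6.40-fold lower against 3 counts (exact upper limit of the log2 ratio -2.27). *Asah1* at 0.40 (-0.16 to 0.95) had an interval that includes 0. The median log2 ratio over all genes was -0.21 in immune-gated cells. The immune gate pools T cell and myeloid markers, and the mix of these cells in each tissue was not compared. In skin, endothelial-gated cells had *Ugcg* at 192 CPM (138 to 261), close to the granular level, and outer bulge cells had *Cers4* at 48.0 CPM (35.1 to 64.0). Hair follicle matrix and sheath cells of skin held *Smpd1* at 50.2 CPM and *Cers4* at 39.3 CPM. Split after these values were seen, the 230 cells with more hair shaft than inner root sheath keratin UMIs stood at 115 CPM for *Smpd1* (96.2 to 137) and 11.5 CPM for *Cers4*, and the 489 cells with more inner root sheath keratin UMIs at 11.4 CPM and 50.2 CPM. The hair shaft cells therefore reached an *Smpd1* level with an interval that overlaps that of granular cells.

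**Figure D4:**
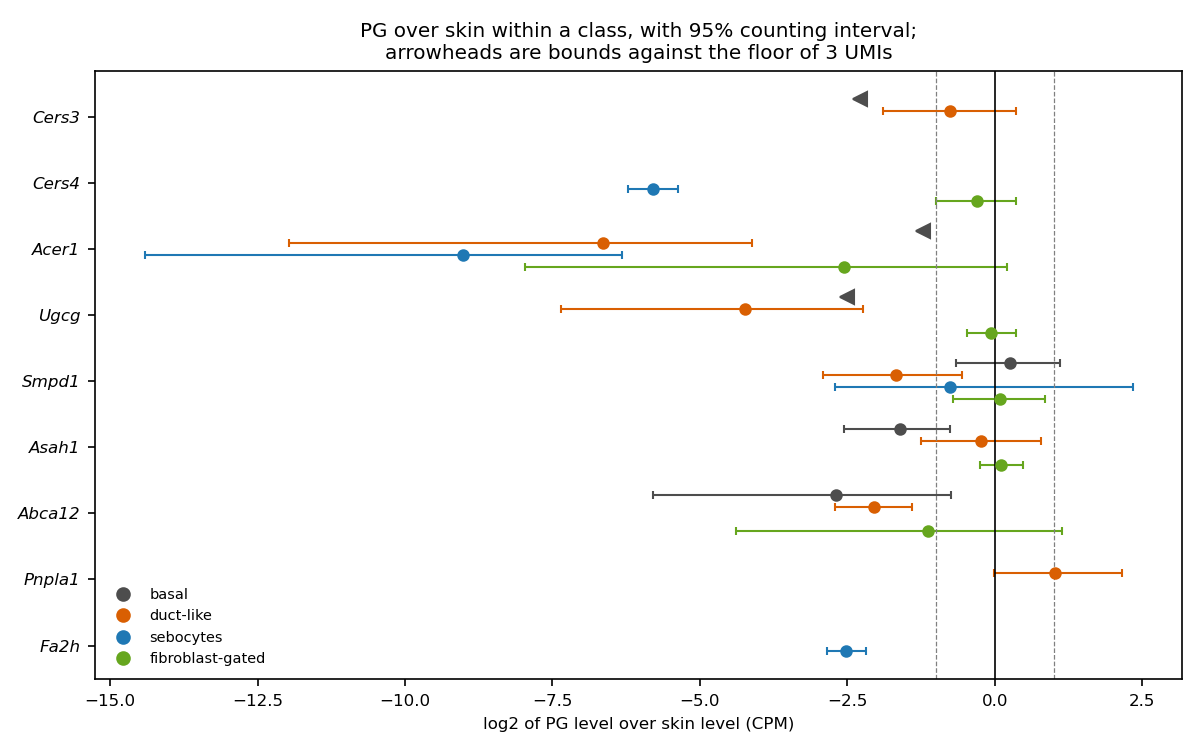
Log2 ratio of PG over skin for members in basal, duct-like, sebocyte and fibroblast-gated cells, with 95% counting intervals. Arrowheads are bounds against the floor of 3 UMIs, dashed lines mark 2-fold, and members with under 10 UMIs in the pair are left out. The fibroblast points of *Cers4*, *Ugcg*, *Smpd1* and *Asah1* lie near 0, and the sebocyte point of *Cers4* lies at -5.79.

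Shares of cells with a UMI were read after every cell was thinned to 1000 UMIs. Where a share went against the CPM, as for *Acer1* between spinous and granular cells, *Smpd1* between basal and spinous cells and *Asah1* between basal and granular cells, no order was read from it. *Abca12* was seen in 28.1% of granular cells (Clopper-Pearson 95% interval 19.1 to 38.6%, 76.4% before thinning), 10.6% of spinous cells (8.93 to 12.4%) and 0.713% of basal cells (0.369 to 1.24%). Skin fibroblast-gated cells, which stand for cells that should lack it, had 0.1803% (0.0218 to 0.650%), an interval that overlaps the basal one. *Acer1* was seen in 13.2% of spinous cells (11.4 to 15.2%, 38.1% before thinning), 14.6% of granular cells and 0.416% of basal cells, which is no more than the 0.451% of fibroblast-gated cells, so that the basal share was read as background. *Cers3* was seen in 0.534% of basal (0.245 to 1.01%), 1.60% of spinous (0.982 to 2.46%) and 4.49% of granular cells (1.24 to 11.1%), with overlap at both steps. *Pnpla1* was seen in 1.28% of spinous (0.735 to 2.07%) and 5.62% of granular cells (1.85 to 12.6%), which overlap. The *Ugcg* shares of basal, spinous and granular cells were apart. *Cers4* was seen in 39.4% of skin sebocytes (22.9 to 57.9%, 63.6% before thinning) and 1.255% of PG sebocytes (0.670 to 2.14%, 4.15% before thinning). The share was 2.5% in PG and 2.71% in skin fibroblast-gated cells. PG fibroblast-gated cells held *Cers4* at 23.6 CPM, against 4.27 CPM in the free RNA of PG. They therefore do not stand for cells that lack it. In PG basal cells the share was 0.148% (up to 0.820%), and PG duct-like cells had none (up to 0.916%). Both intervals overlap that of PG sebocytes, so no order of these PG classes was read from the share. In PG duct-like cells *Cers3* was seen in 0.499% (0.0605 to 1.79%), *Abca12* in 0.748% (0.155 to 2.17%) and *Pnpla1* in 1.25% (0.406 to 2.89%). The intervals of PG basal cells end at 0.543%, 0.820% and 0.820% for these genes and overlap, so the shares did not separate duct-like from basal cells. *Fa2h* was seen in 21.2% of skin sebocytes (8.98 to 38.9%) and 6.56% of PG sebocytes (5.13 to 8.25%). It was seen in 0.295% of PG basal and 0.294% of PG fibroblast-gated cells. Median depths before thinning were 1842 UMIs in skin and 1382 UMIs in PG fibroblast-gated cells.

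Across the 8 class levels, log2(CPM + 10) of *Cers3* ran with that of *Ugcg* (Pearson's r 0.97), *Abca12* (0.93) and *Asah1* (0.89), and that of *Cers4* with *Fa2h* (0.92), while *Cers3* and *Cers4* had an r of -0.42. These 8 points share 2 libraries and are a description only. Among 4458 other genes with at least 50 CPM in a class, the closest to *Cers3* were *Cgn*, *Gramd3* and *Cysrt1* (0.98 to 0.99), to *Ugcg* *Map2*, *Tmf1* and *Fam89a* (0.99 each), to *Abca12* *Esrp1*, *Mpzl3* and *Gng12* (0.98 to 0.99) and to *Smpd1* *Agpat5*, *Lrrc28* and *Lce6a* (0.98 to 0.99). *Fa2h* was closest to *Acacb*, an acetyl-CoA carboxylase, and *Clstn3* (0.998 and 0.996) and to *Acat2* (0.985), and *Cers4* to *Fam57b*, *Mmab* and *Acoxl* (0.98 to 0.99). For *Acer1* the closest were *Ss18*, *Senp2* and *Nfe2l1* (0.94 to 0.95), for *Asah1* *Sertad1*, *Hspb8* and *Eps15* (0.96 each) and for *Pnpla1* *Mapk3* and *Slc6a14* (0.97 each).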

How the data were processed

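Single-cell suspensions of back skin and PG, each pooled from 3 mice, were sequenced as 1 library per tissue, by the labels with a 3′ kit. The barcode lists differ in length, as given above, so the same chemistry for both libraries is not certain. For each library the authors deposited whole-number counts of UMIs per gene and barcode, written by Cell Ranger 4 per the file headers and mapped to mm10 per the submitters' processing notes. The values carry no normalization and no filter on barcodes. The members, the list of 45 further pathway genes and the markers were chosen with earlier results of these data known, and the gate limits after the marker shares had been seen.

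Kept cells were classed by marker shares after cells past exclusion gates for fibroblast, immune, endothelial, muscle, melanocyte, Schwann, hair follicle and outer bulge markers had been set aside. The gates were 0.5% for granular, 2% for duct, 1% for spinous and 0.3% with at least 3 markers for sebocyte cells. Basal cells were at or above the 75th percentile of basal share in their own library (2.03% in skin, 0.541% in PG) with under 0.5% of other lists and under the sebocyte gate. In skin 2518 and in PG 1548 kept cells entered no gate. Doublets stayed in, and an alternative removed the 634 and 177 cells most like simulated doublets. Free RNA was read from barcodes with at most 100 UMIs. Its part in a class was estimated from the fibroblast, immune and endothelial markers together, at 4.31% to 17.0% of the UMIs. The estimate counts every UMI of these markers as free RNA, whatever its source. Immune markers stood at 235 CPM in skin spinous, 285 CPM in granular and 39.8 CPM in basal cells. Fibroblast markers stood at 81.6, 20.5 and 40.5 CPM there, so the top of the range may not be free RNA alone.

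UMIs were summed per class and scaled to CPM, with exact Poisson intervals for levels, exact binomial intervals for ratios and Clopper-Pearson intervals for shares, all at 95%. A class without UMIs was given 3 counts and the ratio written as a bound. Such a bound leaves out the counting error of the other class, and the exact limit lies nearer to no difference. In the medians over genes such genes stand at that value. No p-value was computed, because cells are not replicates. All 10 members are named. Further pathway genes are named from the fixed list, and for each member with at least 30 UMIs the 3 genes with the highest Pearson's r. A few genes among these are not reported here. The ratio code was tested on simulated data. Python 3.11.15, numpy 2.4.6, scipy 1.17.1, pandas 2.3.3, scikit-learn 1.9.0, leidenalg 0.10.2 and igraph 0.11.9 were used, and matplotlib 3.10.9 for figures. Positions are from GENCODE annotation of GRCm38.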

Additional observations from a re-analysis of the deposited data

How the results depend on the processing

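The 56 member ratios were recomputed under 8 alternatives: at least 1000 genes and 2000 UMIs per cell, at most 5% mitochondrial UMIs, gates at 2 times the limits, classes from Leiden clusters, doublets removed, equal weight per cell, CPM without mitochondrial, ribosomal and marker genes, and free RNA subtracted. Ratios between tissues were also set against the median of all genes. Of 449 recomputed ratios 436 kept their direction, and 39 left the counting interval. Gates at 2 times the limits left 65 skin and 90 PG basal cells. The *Cers4* ratio over skin basal cells then turned to -1.25 in spinous and -1.24 in duct-like cells, and 4 members were higher and 1 lower in spinous cells, 3 higher and 1 lower in skin duct-like cells, 0 higher and 1 lower in PG duct-like cells, and 0 lower in PG than skin basal cells. In skin duct-like cells 1 member was also lower with doublets removed. In PG duct-like cells 1 was lower with 1000 genes and 2000 UMIs. With Leiden clusters 1 member was lower in skin sebocytes and 2 in PG sebocytes, and without a minimum of UMIs 3 in PG sebocytes. The 1 member higher in PG than skin duct-like cells, *Pnpla1*, became 0 with at most 5% mitochondrial UMIs, stricter gates, Leiden clusters or doublets removed and 2 without a minimum of UMIs, which in basal cells gave 1. The cause of these changes was not tested. The values without the cell with the most UMIs, given for *Cers4*, *Fa2h* and *Acer1*, were chosen after seeing the data. No paired analysis was possible because each tissue is 1 library and no result comes from a test.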
